A study of Homo sapiens with 35 samples.

Results

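ZNF655 was depleted in HEK293T cells with a siPOOL, and the 2 resulting libraries (replicates 3 and 4) were set against the 4 control siPOOL libraries that carry the same replicate numbers (3a, 3b, 4a and 4b). These 6 libraries were chosen from the 35 of the series by their labels alone. HEK293T is an established human embryonic kidney line that carries the SV40 large T antigen, a viral protein that binds and holds p53. A siPOOL is a complex mixture of small interfering RNAs against 1 transcript, and depleted and control cells both received 5 nM of it with RNAiMax in a repeated transfection, with depletion for 72 h and no glucose starvation. Total RNA was freed of ribosomal RNA before sequencing. No label names the control that belongs to ZNF655. Each named gene was therefore also compared with the 2 control siPOOL libraries labelled for ZMYND8 (replicates 3 and 4), called the ZMYND8 controls here. The series asked how Integrator, represented by its subunit INTS13, and the transcription factors that bind the complex relate in function, and the 2 libraries each of INTS13 and unstarved HDGF siPOOL cells served as direct comparisons.

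ZNF655, also called VIK, is a zinc finger protein of the Krüppel type that is known to bind the guanine nucleotide exchange factor VAV1 and the cell cycle kinase CDK4. Integrator is a large complex on RNA polymerase II that cleaves nascent RNA and can end transcription early. p53 is a transcription factor that raises genes of cell cycle arrest, cell death and DNA repair when it is stabilised or released from its inhibitors, of which MDM2 is the main cellular one.

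Read counts per gene were the measurement, and levels are given as CPM, read counts scaled to a common library size by the TMM method. Where no set is named, control values are those of controls 3a, 3b, 4a and 4b, in that order or as a range. The 6 libraries and the ZMYND8 controls held 17.9 to 28.9 M reads counted over 24443 to 26909 genes. Whether replicate numbers stand for independent cultures is not said, so the p-values below reflect sample-to-sample spread that may be technical. All 9 embryonic kidney markers were detected in each library, and the defining markers of hepatocytes (ALB), blood cells (PTPRC), endothelial cells (PECAM1) and keratinocytes (KRT5) stayed under 1 CPM in each library. VIM, the intermediate filament gene vimentin, was the most abundant of the kidney markers. It stood at 317 and 356 CPM with the ZNF655 siPOOL, at 684, 660.1, 653 and 629.7 CPM in controls 3a, 3b, 4a and 4b, and at 601 and 601 CPM in the ZMYND8 controls (against controls 3 and 4, log2 -0.97 ± 0.08 SE, adjusted p = 1.18e-08). The sum of the 9 kidney markers was 512 to 552 CPM with the ZNF655 siPOOL, 842 to 901 in controls 3 and 4, and 808 to 818 in the ZMYND8 controls, and VIM made up most of that sum and of its difference. KRT8, another of the 9, was at 7.63 and 7.33 CPM with the ZNF655 siPOOL and at 4.35 to 5.57 CPM in controls 3 and 4. The summed fibroblast markers, nearly all of it COL1A1, were 7.74 to 8.09 CPM against 3.14 to 4.89 in controls 3 and 4 and 5.89 to 6.81 in the ZMYND8 controls, with COL1A2 at 0 in each library. In such bulk samples, fewer cells of a type and less RNA per cell cannot be told apart.

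ZNF655 itself (ENSG00000197343, hg38 chromosome 7, 99558406 to 99576453, plus strand) measured 48.8 and 45.7 CPM in the depleted libraries. Controls 3a, 3b, 4a and 4b held 94.1, 106, 104 and 97.4 CPM and the ZMYND8 controls 98.4 and 96 CPM. Every depleted library lay below all 6 controls, and 47% of the level of controls 3 and 4 was left (log2 -1.09 ± 0.10 SE, adjusted p = 6.07e-08 by edgeR's quasi-likelihood test with Benjamini-Hochberg adjustment). The INTS13 siPOOL libraries (94.3 and 95.7 CPM) and the HDGF siPOOL libraries (90.9 and 99.6 CPM) kept ZNF655 near the control level. Of the proteins that ZNF655 is known to bind, CDK4 was not called (log2 0.03 ± 0.16 SE, adjusted p = 0.935). VAV1, an exchange factor best known from blood cells, measured 5.73 and 4.56 CPM against 2.34 to 3.53 in controls 3 and 4 (log2 0.76 ± 0.18 SE, adjusted p = 0.00628). The VAV1 difference did not pass against the ZMYND8 controls (log2 0.20 ± 0.21 SE, adjusted p = 0.604) and was lost without ZNF655 replicate 3. VAV2 and VAV3 were not called against controls 3 and 4 (log2 0.10 and -0.33), and VAV3 was called lower against the ZMYND8 controls (log2 -0.69 ± 0.15 SE, adjusted p = 0.00543).

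Among 19275 genes tested, 2208 (11.5%) were called between ZNF655 depletion and controls 3 and 4, 1267 (6.57%) higher and 941 (4.88%) lower. A call means an adjusted p under 0.05. Against the ZMYND8 controls 1755 genes (9.11%) were called, 995 (5.16%) higher and 760 (3.94%) lower. The 2 sets of controls themselves differed in 1477 genes (7.66%), 731 of them (3.79%) higher and 746 (3.87%) lower in the ZMYND8 controls, and 411 of the 2208 genes were among these. Genes called in the same direction against both sets numbered 753, of which 361 (1.87%) were higher and 392 (2.03%) lower, and 4 genes were called in opposite directions. Without any test, both depleted libraries lay above the 4 controls in 21.5% of genes and below them in 22.0%, and above all 6 controls in 14.0% and below in 15.5%. Changes of at least 2-fold against controls 3 and 4 were mostly upward, 354 genes higher and 45 lower. The number of calls was 721 without ZNF655 replicate 3 and 1076 without replicate 4. Against the ZMYND8 controls it was 493 to 659 with any 1 of the 4 libraries left out, and between the 2 sets of controls 123 and 211 without the ZMYND8 control 3 or 4. With the DESeq2 Wald test 1186 genes were higher and 1483 lower.

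The direction of the calls went with abundance. Of 4929 genes with a mean log2 CPM under 0, 216 rose and 14 fell. Of 6615 genes over a log2 CPM of 5, 150 rose and 730 fell. The ZMYND8 controls gave 190 higher and 38 lower in the low class, and 205 higher and 458 lower in the high class. The ZNF655 libraries also differed in makeup from the controls. Ribosomal protein genes took 5.78% and 5.59% of their counts, against 6.57% to 7.2% in controls 3 and 4 and 8.04% and 8.53% in the ZMYND8 controls. The 100 most counted genes took 14.2% and 14.6% of counts, against 15.3% to 16.4% and 17.2% and 17.9%. The part of this makeup in the changes of single genes was not tested.

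**Figure D1:**
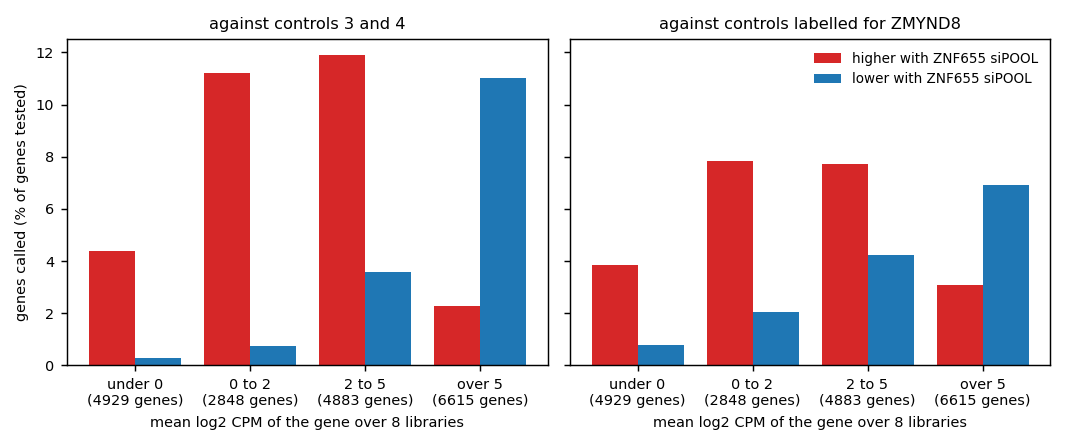
Percentage of tested genes called higher (red bars) or lower (blue bars) with the ZNF655 siPOOL, by mean log2 CPM of the gene over 8 libraries, against controls 3 and 4 (left) and the ZMYND8 controls (right). Under a log2 CPM of 0, 4.38% rose and 0.284% fell against controls 3 and 4, and over a log2 CPM of 5, 2.27% rose and 11.0% fell.

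The 12 protein-coding genes named as higher were those with the largest rise among genes called upward against both control sets, with no overlap between the depleted libraries and the 6 controls and a mean log2 CPM of at least 2. PHLDA3, a p53 target that restrains AKT at the membrane, led them. It measured 27.7 and 26.9 CPM with the ZNF655 siPOOL, 8.79, 6.04, 5.69 and 6.37 CPM in controls 3a, 3b, 4a and 4b, and 12.3 and 11.8 CPM in the ZMYND8 controls. Both depleted libraries lay above all controls, 4.05-fold over controls 3 and 4 (log2 2.02 ± 0.18 SE, adjusted p = 3.09e-08). The ZMYND8 controls lay above controls 3 and 4 for this gene (log2 0.83 ± 0.19 SE, adjusted p = 0.0098), and the rise against them was 2.27-fold. LGALS3BP, a secreted glycoprotein that binds galectin-3, reached 32.5 and 23.5 CPM, against 8.08, 7.06, 7.56 and 7.1 CPM in controls 3 and 4 and 8.63 and 9.65 CPM in the ZMYND8 controls (log2 1.91 ± 0.16 SE, adjusted p = 1.18e-08). The depleted replicate 3 was the higher of the pair, and both exceeded the controls.

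CDKN1A encodes p21, the inhibitor of cyclin-dependent kinases through which p53 stops the cell cycle. It stood at 74.9 and 56.7 CPM after ZNF655 depletion and at 17.7, 17.1, 20.6 and 15.9 CPM in controls 3a, 3b, 4a and 4b. The ZMYND8 controls held 18 and 23.2 CPM, so the groups did not overlap, and the rise was 3.69-fold and 3.2-fold over the 2 control sets (log2 1.88 ± 0.14 SE, adjusted p = 7.97e-10 for the first). FAS, the death receptor of the CD95 pathway, measured 19.3 and 17.4 CPM against 5.7, 5.29, 5.43 and 5.85 CPM in controls 3 and 4 and 7.03 and 6.17 CPM in the ZMYND8 controls (log2 1.72 ± 0.11 SE, adjusted p = 1.71e-10). FAS lies beside ACTA2 on the opposite strand. Its 6 control values were close together, with the depleted libraries 3.29-fold above controls 3 and 4. SYP encodes synaptophysin, the major membrane protein of synaptic vesicles. SYP measured 41.3 and 44.6 CPM against 15.2, 14.8, 13.2 and 13.4 CPM in controls 3 and 4 and 20.6 and 18.7 CPM in the ZMYND8 controls. It had the lowest adjusted p of the named genes (log2 1.60 ± 0.08 SE, adjusted p = 2.98e-13), and the ZMYND8 controls were again the higher control set (log2 0.48 ± 0.08 SE).

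The other 7 genes of this group rose 2.32-fold to 2.93-fold over controls 3 and 4. ZDHHC22, a palmitoyltransferase gene, measured 18.4 and 15.9 CPM against 5.25 to 6.62 CPM (log2 1.55 ± 0.20 SE, adjusted p = 5.35e-06). KCNC1 encodes a fast voltage-gated potassium channel of neurons, and it measured 8.52 and 9.26 CPM against 2.98 to 4.21 CPM (log2 1.28 ± 0.24 SE, adjusted p = 0.000591). SPATA18 (1.26), a mitochondrial quality control gene, and DDB2 (1.23), which recognises ultraviolet damage in DNA, are known p53 targets. TMEM198 (log2 1.24), PARM1 (1.24) and ADAM11 (1.21) encode membrane proteins. Each of these 12 genes kept its call with each of the 6 libraries left out in turn.

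**Figure D2:**
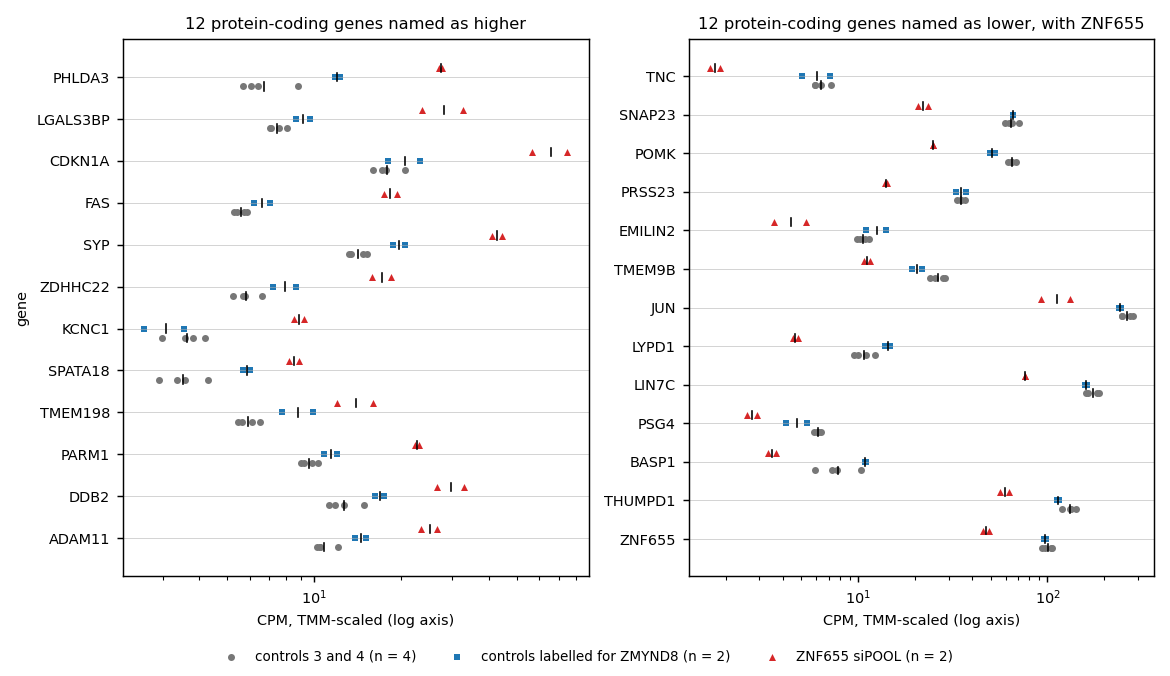
CPM of each library on a log axis for the 12 protein-coding genes named as higher (left) and the 12 named as lower with ZNF655 below them (right). Triangles are the ZNF655 siPOOL libraries, circles controls 3 and 4, squares the ZMYND8 controls, and short bars the group means; in every gene shown the 2 triangles lie on 1 side of all 6 control points, as the choice of genes required.

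Among long noncoding genes, MIR34AHG, the host transcript of the p53-induced microRNA miR-34a, rose most. It measured 24.5 and 21.6 CPM against 4.95, 4.59, 6.08 and 5 CPM in controls 3a, 3b, 4a and 4b and 7.39 and 7.13 CPM in the ZMYND8 controls (log2 2.16 ± 0.20 SE, adjusted p = 3.09e-08). The depleted libraries were 4.48-fold above controls 3 and 4, and the mature microRNA was not measured. PVT1 measured 35.4 and 27.9 CPM against 17.2 to 18.9 CPM in controls 3 and 4 and 11.9 and 12 CPM in the ZMYND8 controls (log2 0.81 ± 0.18 SE, adjusted p = 0.00276), a call lost without ZNF655 replicate 3. AL139393.3 rose 1.77-fold (log2 0.82 ± 0.17 SE, adjusted p = 0.00216) and lost its call without replicate 4. In the other direction MCM3AP-AS1 (log2 -0.32), OIP5-AS1 (-0.31) and MRPL20-AS1 (-0.30) fell by small amounts, and each lost its call when single libraries were left out. The strand setting of the counting is not given in the sources used here, so reads of these antisense genes and their partners may not be separated.

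p53 targets were described through 3 lists of 42 genes, of which 38 were tested; the other 4 reached at most 3 counts in any of the 8 libraries. Of the 38, 18 were called higher after ZNF655 depletion and 0 lower, where 6.57% of all tested genes were called higher, and their median log2 fold change was 0.35 against 0.02 over all genes tested. By edgeR at an unadjusted p under 0.05 the lower count was also 0, as it was by the DESeq2 Wald test, which called 18 higher. Against the ZMYND8 controls 15 were higher (5.16% of all genes were), with a median of 0.36. There 0 were lower, and 2 at an unadjusted p under 0.05. The number higher against controls 3 and 4 was 11 when either ZNF655 replicate was left out. The lists were chosen with results of these libraries known, so their counts describe these samples and are not independent evidence of a direction.

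Within the list of cell cycle and growth arrest, 5 of 12 genes rose: CDKN1A, PLK3, ZMAT3, SESN1 and BTG2. PLK3, a stress-activated kinase, measured 3.95 and 5.39 CPM against 1.56 to 2.21 CPM (log2 1.35 ± 0.20 SE, adjusted p = 6.64e-05). ZMAT3, an RNA-binding p53 target, measured 56.2 and 52.4 CPM against 27.2, 29.4, 30.4 and 26.3 CPM in controls 3a, 3b, 4a and 4b and 25.7 and 23.7 CPM in the ZMYND8 controls. Its depleted libraries lay 1.92-fold above controls 3 and 4 (log2 0.94 ± 0.12 SE, adjusted p = 4.01e-06) and 2.19-fold above the ZMYND8 controls. SESN1, a sestrin that restrains mTORC1, rose less (log2 0.41 ± 0.10 SE, adjusted p = 0.00654) and did not pass against the ZMYND8 controls (log2 0.32 ± 0.12 SE, adjusted p = 0.0862). Its call was lost when either ZNF655 replicate was left out. GADD45A, another arrest gene, was not called against controls 3 and 4 (log2 0.19 ± 0.20).

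Of the apoptosis list, 9 of 14 tested genes rose: EDA2R, PHLDA3, FAS, SPATA18, CYFIP2, TNFRSF10B, TP53I3, AEN and BAX. EDA2R, a receptor of the tumour necrosis factor family, rose most of the p53 targets, from 0.407, 0.627, 0.651 and 0.605 CPM in controls 3a, 3b, 4a and 4b to 3.24 and 2.59 CPM (log2 2.35 ± 0.28 SE, adjusted p = 2.32e-06). The ZMYND8 controls (0.544 and 0.561 CPM) were at a like level (log2 -0.04 ± 0.39 SE). TNFRSF10B, the TRAIL receptor DR5, measured 98.4 and 101 CPM against 53.8, 53.4, 54 and 48.8 CPM in controls 3 and 4 and 52.1 and 58.5 CPM in the ZMYND8 controls (log2 0.92 ± 0.07 SE, adjusted p = 2.35e-09). The depleted values lay near each other and above all 6 controls. AEN, a nuclease of the apoptosis programme, measured 165 and 166 CPM against 111 to 126 CPM (log2 0.47 ± 0.10 SE, adjusted p = 0.00334). The BH3-only genes BBC3 (log2 0.33 ± 0.13) and PMAIP1 (-0.37 ± 0.22) were not called.

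In the list of feedback, repair and metabolism 4 of 12 tested genes rose: DDB2, FDXR, MDM2 and PPM1D. DDB2 measured 33 and 26.6 CPM against 14.8, 11.3, 11.8 and 12.7 CPM in controls 3a, 3b, 4a and 4b and 16.2 and 17.4 CPM in the ZMYND8 controls (log2 1.23 ± 0.17 SE, adjusted p = 1.47e-05). FDXR, a mitochondrial ferredoxin reductase, measured 32 and 27.5 CPM against 16.1 to 19.3 CPM (log2 0.80 ± 0.11 SE, adjusted p = 1.78e-05), and both genes were above all 6 controls. MDM2, the ubiquitin ligase of p53, stood at 263 and 237 CPM against 201, 209, 207 and 205 CPM (log2 0.28 ± 0.09 SE, adjusted p = 0.048). That is 1.22-fold, and the MDM2 call was lost with any 1 of the 6 libraries left out and was not made against the ZMYND8 controls (log2 0.25 ± 0.11 SE, adjusted p = 0.151). The phosphatase gene PPM1D was similar in size (log2 0.27 ± 0.08), with a call lost without controls 3a or 4b or either ZNF655 replicate.

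**Figure D3:**
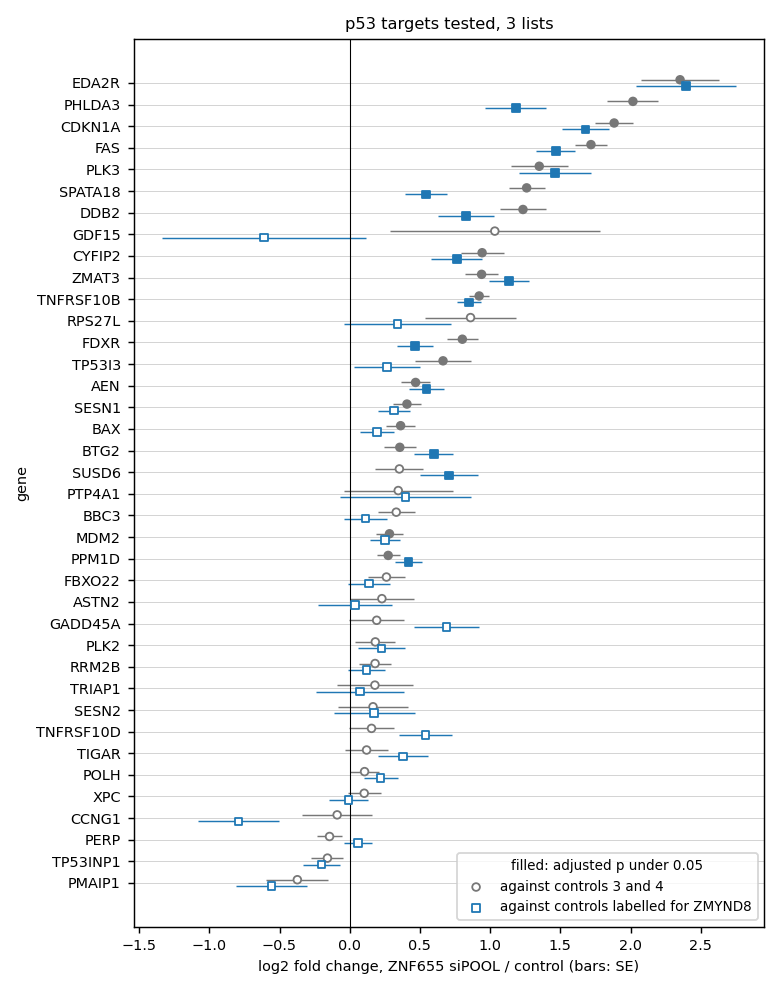
Log2 fold change with its SE for the 38 tested p53 targets, ZNF655 siPOOL over controls 3 and 4 (circles) and over the ZMYND8 controls (squares); filled points have an adjusted p under 0.05. The filled points all lie to the right of 0, from EDA2R, PHLDA3 and CDKN1A at the top to MDM2 and PPM1D with small changes.

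The sequence to which p53 binds was looked up in the promoters of these genes. RefSeq windows of 300 bases (250 before and 50 after each annotated gene start, GRCh38.p14) were matched by symbol for 11749 tested genes in 17097 windows. They were searched on both strands for the p53 response element without spacer, a 20-base motif made of a pair of adjoining decamers. Both CNNG cores had to be intact and at most 2 other mismatches were allowed. The element was present in 39 genes (0.332%), and in 4 of the 31 p53 targets with a window (12.9%): AEN, DDB2, FAS and MDM2. No motif for ZNF655 was searched. The 4 matches are shown 5′ to 3′ on the gene's strand, with the 20 bases of the element in capitals.
AEN: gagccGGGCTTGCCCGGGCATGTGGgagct
DDB2: gctccAAGCTGGTTTGAACAAGCCCtgggc
FAS: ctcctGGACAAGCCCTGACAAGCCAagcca
MDM2: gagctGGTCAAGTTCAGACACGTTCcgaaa
They lie on the plus strand at chr15:88621301-88621330 (AEN), chr11:47214964-47214993 (DDB2), chr10:88991304-88991333 (FAS) and chr12:68808918-68808947 (MDM2). Positions are counted from the annotated start of the window that held the match. The AEN element spans bases -34 to -15 and that of DDB2 -5 to 15. That of FAS spans -122 to -103 and that of MDM2 -94 to -75. As counted here, the genes DDB2, FAS and MDM2 start at bases 47214465, 88990531 and 68808177 of their chromosomes. Their elements thus lie downstream of those starts, within the genes. The DDB2 element has 1 mismatch and the others 2. These 4 genes rose 1.38-fold, 2.35-fold, 3.29-fold and 1.22-fold over controls 3 and 4. A match is a description of the letters and not of binding, and p53 elements outside these windows were not searched.

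Genes of the G1 phase were mostly lower where they were called. Of 24 genes tested 7 fell and 1, CDKN1A, rose, where 4.88% of all genes fell. CCND1, encoding cyclin D1, measured 22.9 and 21.4 CPM against 41.7, 38.7, 39.6 and 37.8 CPM in controls 3a, 3b, 4a and 4b (log2 -0.83 ± 0.21 SE, adjusted p = 0.0082). The CCND1 difference did not pass against the ZMYND8 controls (log2 -0.62 ± 0.23 SE, adjusted p = 0.0973), and its call was lost when either ZNF655 replicate was left out. CCNE1, encoding cyclin E1, measured 30.1 and 32.3 CPM against 48.2, 52.4, 53.4 and 49 CPM (log2 -0.70 ± 0.10 SE, adjusted p = 5.31e-05). The ZMYND8 controls held 35.6 and 38.2 CPM of CCNE1, nearer the depleted libraries, and the difference from them was not called (log2 -0.24 ± 0.12 SE, adjusted p = 0.207). The kinase inhibitor gene CDKN1C (-0.68), the pocket protein gene RBL2 (-0.42) and E2F5 (-0.59) were called lower against both sets of controls. E2F1 (log2 -0.30) and CDC25A (-0.34) passed as lower against controls 3 and 4 and did not pass against the ZMYND8 controls, and CDKN1C and E2F1 lost their calls without ZNF655 replicate 3. CDK6 (log2 -0.58 ± 0.23), CCND2 (0.33 ± 0.19), CCND3 (0.20 ± 0.10) and RB1 (-0.06 ± 0.11) were not called. Of the 7 that fell, 3 were called without ZNF655 replicate 3.

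Of 31 mitosis genes 6 (19.4%) fell against controls 3 and 4, by little, where 4.88% of all genes fell. Of all genes over a log2 CPM of 5, the class of the mitosis genes named here, 11.0% fell. Mitosis genes that rose numbered 0 in edgeR, at an unadjusted p as well, and in DESeq2. KIF2C, a microtubule-depolymerising kinesin gene, measured 95.4 and 94 CPM against 114, 118, 118 and 115 CPM (log2 -0.30 ± 0.07 SE, adjusted p = 0.00621). It was the 1 mitosis gene (3.23%) also lower against the ZMYND8 controls, where 3.94% of all genes were lower. The checkpoint kinase genes BUB1 (-0.28) and BUB1B (-0.32) lost their calls without ZNF655 replicate 3, and BIRC5 (-0.25), encoding survivin, without any 1 of 5 libraries. The number of mitosis genes lower was 1 without replicate 3 and 0 without the filter on low counts. Of 34 DNA replication genes 2 fell, a share near that of all genes. RFC5, a subunit of the clamp loader, measured 84.2 and 91.8 CPM against 118 to 139 CPM in controls 3 and 4 and 124 and 124 CPM in the ZMYND8 controls (log2 -0.52 ± 0.08 SE, adjusted p = 0.000105). GINS1 (log2 -0.37 ± 0.08 SE, adjusted p = 0.0025) was not lower than the ZMYND8 controls by the test (log2 -0.10 ± 0.09 SE, adjusted p = 0.533).

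Genes of neurons and secretory granules formed another list. Of 34 listed 25 were tested, and the 9 not tested reached at most 9 counts in any library. Of the 25, 11 rose against controls 3 and 4, with a median log2 fold change of 0.60, where 6.57% of all genes rose. None fell by edgeR, with a count of 0 at an unadjusted p under 0.05 and by DESeq2. Against the ZMYND8 controls 5 rose (SYP, SCG3, CHGB, UNC13A and GDAP1) and 1, GAP43, fell, with a median of 0.37. There 5.16% of all genes rose and 3.94% fell. The 2 sets of controls also differed in this list. In the ZMYND8 controls 4 of the 25 were higher than in controls 3 and 4 and 0 lower, with a median of 0.31. Of all genes 3.79% were higher and 3.87% lower between the 2 sets of controls. The granule proteins SCG3 and CHGB were near the limit of detection. SCG3 measured 1.34 and 1.24 CPM against 0.238, 0.353, 0.0434 and 0.363 CPM in controls 3a, 3b, 4a and 4b (log2 2.33 ± 0.35 SE, adjusted p = 5.92e-05). CHGB, a chromogranin, measured 0.856 and 1.28 CPM against 0.204, 0.157, 0.347 and 0.161 CPM (log2 2.29 ± 0.33 SE, adjusted p = 3.47e-05). Both were higher in each depleted library than in all 6 controls, with 2 CPM or less in every library. UNC13A, which primes synaptic vesicles, measured 4.13 and 4.19 CPM against 1.43 to 2.2 CPM (log2 1.12 ± 0.18 SE, adjusted p = 0.000125).

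CPLX1, encoding complexin 1 of the vesicle fusion machinery, measured 4.88 and 6.67 CPM against 3.43, 2, 1.78 and 2.5 CPM (log2 1.24 ± 0.31 SE, adjusted p = 0.00934), a call lost without ZNF655 replicate 4. STMN3, a stathmin of axons, stood at 28.5 and 28.9 CPM against 17.1 to 22.4 CPM (log2 0.60 ± 0.12 SE, adjusted p = 0.000788). The ZMYND8 controls held 29.1 and 26.7 CPM of STMN3 and did not differ from the depleted libraries by the test (log2 0.04 ± 0.13 SE, adjusted p = 0.881). MAP2 (1.13), CHGA (1.06), RAB3A (0.86), CELSR3 (0.55) and GDAP1 (0.33) completed the 11. The number called was 7 without ZNF655 replicate 3 and 6 without replicate 4. The SNARE partner gene SNAP25 of neurons was not tested, with at most 5 counts.

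REST, the repressor that keeps neuronal genes silent outside neurons, measured 75.7 and 71.1 CPM with the ZNF655 siPOOL and 99.3, 116, 109.6 and 115 CPM in controls 3a, 3b, 4a and 4b (log2 -0.58 ± 0.12 SE, adjusted p = 0.00166). The ZMYND8 controls held 76.7 and 89 CPM, below controls 3 and 4 (log2 -0.41 ± 0.12 SE, adjusted p = 0.0349), and the difference between them and the depleted libraries was not called (log2 -0.17 ± 0.14 SE, adjusted p = 0.453). REST was lower than in the INTS13 siPOOL cells (log2 -0.54 ± 0.14 SE, adjusted p = 0.0135) and the HDGF siPOOL cells (log2 -0.46 ± 0.14 SE, adjusted p = 0.0371). The other 12 genes of the list of REST and its corepressors were not called against controls 3 and 4. Whether REST had a part in the neuronal gene changes was not tested.

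Interferon response and RNA sensing genes were listed as 41, and 33 were tested. Against controls 3 and 4, 7 (21.2%) rose, where 6.57% of all genes did, and 5 rose by the DESeq2 Wald test. The list's median log2 fold change was 0.27, against 0.02 over all genes tested. Genes of any kind with a mean log2 CPM under 0 had a median of 0.23 (4.38% rose). Those from 0 to 2 had a median of 0.18 (11.2% rose). Of the listed genes that rose, DHX58 and PSMB9 were in the first class and IFI35 and OAS3 in the second. Of the 33, 0 fell by edgeR, at an unadjusted p under 0.05 too, and by DESeq2. Against the ZMYND8 controls 5 (15.2%) rose and 1 (3.03%), IFIT1, fell, where 5.16% of all genes rose and 3.94% fell. OAS3, which makes the second messenger that activates RNase L, measured 4.06 and 4.52 CPM against 1.05, 1.65, 1.52 and 2.02 CPM in controls 3a, 3b, 4a and 4b and 1.49 and 1.23 CPM in the ZMYND8 controls (log2 1.47 ± 0.23 SE, adjusted p = 9.22e-05). IFI35 measured 3.46 and 3.86 CPM against 1.7, 0.902, 0.999 and 1.41 CPM (log2 1.53 ± 0.28 SE, adjusted p = 0.000501). TAP1, the peptide transporter of antigen presentation, measured 26.5 and 25.8 CPM against 14.8, 13.4, 13.5 and 13.8 CPM in controls 3 and 4 and 16.4 and 18 CPM in the ZMYND8 controls (log2 0.91 ± 0.10 SE, adjusted p = 4.7e-07). These 3 genes lay above all 6 controls. The RNA sensors IFIH1 (1.03) and DHX58 (1.56), PSMB9 (1.31) and PARP9 (0.54) rose against controls 3 and 4 and did not pass against the ZMYND8 controls.

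Widely used interferon markers were not among these. ISG15 (log2 -0.08 ± 0.27), IFIT1 (-0.08 ± 0.14) and the RNA sensor DDX58 (-0.01 ± 0.14) were not called, and MX1 and OAS1 reached at most 7 counts. The number of interferon genes called was 3 without ZNF655 replicate 3 and 4 without replicate 4. DHX58 and PSMB9 were under 1 CPM in all 8 libraries and lost their calls when either ZNF655 replicate was left out.

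**Figure D4:**
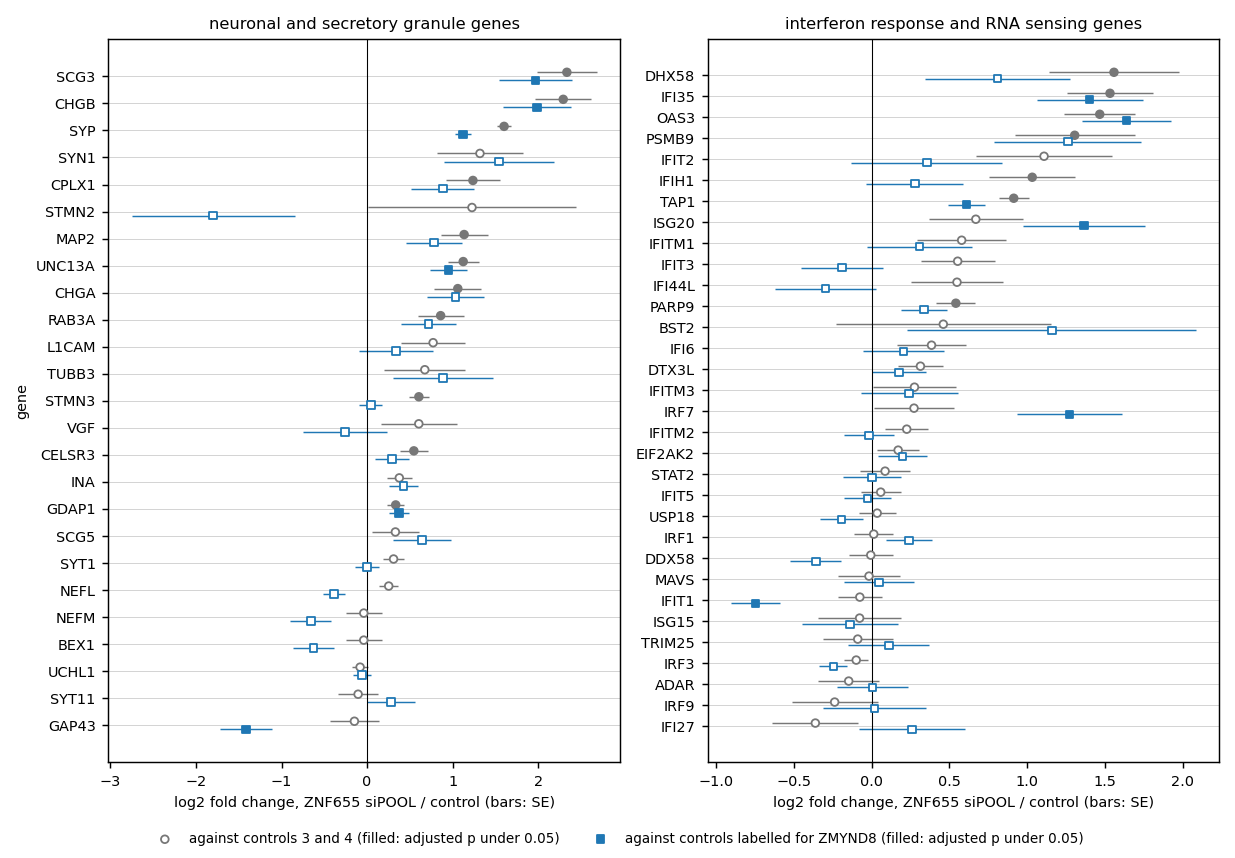
Log2 fold change with its SE for the 25 tested genes of the neuronal and secretory granule list (left) and the tested interferon response and RNA sensing genes (right; 1 of the 33 is not plotted), over controls 3 and 4 (circles) and the ZMYND8 controls (squares); filled points have an adjusted p under 0.05. SCG3, CHGB and SYP are filled in both comparisons at the top of the left panel, and GAP43 and IFIT1 are the points filled to the left of 0, against the ZMYND8 controls.

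The 12 protein-coding genes named as lower were chosen by the same conditions. TNC, encoding the matrix glycoprotein tenascin C, fell most. It measured 1.86 and 1.64 CPM in the depleted libraries, 5.94, 7.21, 6.38 and 5.93 CPM in controls 3a, 3b, 4a and 4b and 5.04 and 7.07 CPM in the ZMYND8 controls, so 27.5% of the level of controls 3 and 4 was left (log2 -1.86 ± 0.22 SE, adjusted p = 2.8e-06). The depleted libraries lay well below the lowest control. SNAP23 encodes the SNARE protein that takes part in exocytosis outside neurons. It measured 23.3 and 20.7 CPM against 64.9, 59.3, 70.6 and 62.6 CPM in controls 3 and 4 and 65.9 and 65.6 CPM in the ZMYND8 controls, and 34.2% was left (log2 -1.55 ± 0.11 SE, adjusted p = 7.41e-10). The 2 sets of controls agreed on SNAP23 within their spread (log2 0.03 ± 0.10 SE). JUN, the AP-1 transcription factor gene, measured 92.4 and 131 CPM against 284, 272, 249 and 249 CPM in controls 3 and 4 and 244 and 240.2 CPM in the ZMYND8 controls (log2 -1.24 ± 0.13 SE, adjusted p = 2.77e-07). The depleted replicate 4 was the higher of the pair and still below all 6 controls.

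POMK, a kinase gene of dystroglycan glycosylation, measured 24.9 and 24.9 CPM against 61.7, 68.5, 65.1 and 64.3 CPM (log2 -1.38 ± 0.12 SE, adjusted p = 1.2e-08). PRSS23, a secreted serine protease gene, measured 14.1 and 13.8 CPM against 34.9, 36.4, 33.2 and 35.1 CPM in controls 3 and 4 and 32.9 and 37 CPM in the ZMYND8 controls (log2 -1.32 ± 0.12 SE, adjusted p = 5.41e-08). LIN7C, a scaffold protein gene of cell polarity, measured 76 and 76.1 CPM against 164, 182, 188 and 159.5 CPM (log2 -1.19 ± 0.11 SE, adjusted p = 3.73e-08). In these 3 genes between 38.4% and 43.9% of the control level was left. THUMPD1, a factor of tRNA acetylation, was at 56.1 and 62.7 CPM against 119.8 to 141 CPM (log2 -1.14 ± 0.09 SE, adjusted p = 1.66e-09). The matrix gene EMILIN2 (-1.26), the lysosomal membrane gene TMEM9B (-1.25), LYPD1 (-1.20), PSG4 (-1.16) and BASP1 (-1.15) made up the 12. EMILIN2 lost its call without ZNF655 replicate 3, and the other 11 kept theirs with each of the 6 libraries left out in turn.

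JUN proteins are known to bind the JUN promoter at an AP-1 element, so its sequence is shown. The 8-base motif TGANNTCA was searched on both strands of the same windows. It was present in 1355 of 11749 genes (11.5%) and in 2 of the 11 genes named as lower that had a window, JUN and PRSS23. The JUN match is at chr1:58784096-58784125 on the minus strand, bases -67 to -60 from the gene start, in capitals.
JUN: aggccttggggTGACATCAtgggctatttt
Of 26 immediate early genes tested, 3 (11.5%) fell against controls 3 and 4, where 4.88% of all genes fell: JUN, DUSP5 and JUND. None rose by edgeR (1 at an unadjusted p under 0.05) or by DESeq2. DUSP5, a phosphatase of ERK, measured 3.61 and 3.43 CPM against 6.41, 8.04, 7.77 and 7.06 CPM (log2 -1.05 ± 0.18 SE, adjusted p = 0.000193). JUND measured 18.6 and 21.6 CPM against 39.2, 25.9, 29.5 and 26 CPM and 51.6 and 35.7 CPM in the ZMYND8 controls (log2 -0.59 ± 0.19 SE, adjusted p = 0.0439). The JUND call was lost without controls 3a or 4a or either ZNF655 replicate. Against the ZMYND8 controls, FOSL2, DUSP2 and CCN2 (11.5%) rose, where 5.16% of all genes rose. There 4 genes (15.4%) fell, JUN, DUSP5 and JUND among them, where 3.94% of all genes fell.

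SNAP23 was next set beside the other SNARE genes. Of 41 SNARE and SNARE recycling genes 4 fell (9.76%, where 4.88% of all genes fell). These 4 were over a mean log2 CPM of 5, a class in which 11.0% of all genes fell. SNAP23 was the 1 called against the ZMYND8 controls (2.44%, where 3.94% of all genes fell). The others were YKT6 (-0.43), VTI1B (-0.39) and GOSR2 (-0.29), each of which lost its call when either ZNF655 replicate was left out. Per kilobase of exons, SNAP23 measured 3.76 CPM in the depleted libraries and 11.0 ± 0.813 CPM (SD, n = 4) in controls 3 and 4. Its relatives SNAP29 (11.5 against 10.9 ± 0.588 CPM per kilobase) and SNAP47 (15.5 against 16.5 ± 0.323) were not called. In the controls SNAP23 and SNAP29 were thus at like levels, and after depletion SNAP23 was the lower.

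All 79 ribosomal protein genes tested had log2 fold changes below 0 against controls 3 and 4, with few calls. In 75 of them both depleted libraries lay below all 6 controls, as they did in 15.5% of all genes. Of the 79, 6 (7.59%) fell against controls 3 and 4 by edgeR, where 4.88% of all genes fell, and 11 by the DESeq2 Wald test. Of all genes over a mean log2 CPM of 5, the class that holds RPL13, 11.0% fell by edgeR. The median log2 fold change of the 79 was -0.39. Against the ZMYND8 controls 12 (15.2%) fell, where 3.94% of all genes and 6.92% of that class fell, and the median was -0.67. None rose by either tool, or by edgeR at an unadjusted p under 0.05, where 24 fell against controls 3 and 4. RPS26, with the lowest adjusted p, measured 146 and 153 CPM against 218, 198, 195 and 220.2 CPM (log2 -0.48 ± 0.10 SE, adjusted p = 0.00284). RPL13 measured 958 and 1117 CPM against 1926, 1444, 1485 and 1415 CPM, with control 3a the highest (log2 -0.60 ± 0.19 SE, adjusted p = 0.0465), and lost its call without any 1 of 5 libraries. The number of these genes lower was 0 without ZNF655 replicate 3 and 1 without replicate 4. It was 51 without the filter on low counts and 74 with the spread taken from these 2 groups alone. Ribosomal protein genes have many near-identical pseudogenes, and how reads were shared among copies is not given in the sources used here.

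Of 18 Integrator subunits tested, INTS6L rose (5.56%, where 6.57% of all genes rose) and INTS4, INTS8 and INTS13 fell (16.7%, where 4.88% of all genes fell) against controls 3 and 4. The same 4 were called in the same directions against the ZMYND8 controls, where INTS6 rose as well and 9.11% of all genes were called. INTS4, INTS8 and INTS13 were over a mean log2 CPM of 5, a class in which 11.0% fell against controls 3 and 4. INTS13, the subunit depleted elsewhere in the series, measured 80.3 and 79.1 CPM against 98.2, 102, 102 and 107 CPM in controls 3 and 4 and 115 and 113 CPM in the ZMYND8 controls (log2 -0.36 ± 0.11 SE, adjusted p = 0.0308). All 6 controls lay above the depleted libraries, with 78% of the level of controls 3 and 4 left, and the call was lost without any 1 of 5 libraries. INTS4, which belongs to the cleavage module, measured 34.4 and 33.6 CPM against 42.2 to 46 CPM (log2 -0.38 ± 0.07 SE, adjusted p = 0.000657) and kept its call with each library left out. INTS6L measured 40.6 and 35.5 CPM against 27.1 to 29.8 CPM (log2 0.45 ± 0.11 SE, adjusted p = 0.00735) and lost its call without ZNF655 replicate 3. The INTS8 call (log2 -0.30) was lost when either ZNF655 replicate was left out.

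Of 37 lysosomal genes 3 (8.11%) were higher and 2 (5.41%) lower, shares near the 6.57% and 4.88% of all genes. CTSA, encoding protective cathepsin A, measured 38.1 and 45.4 CPM against 78.2, 78.9, 82.1 and 79.1 CPM in controls 3a, 3b, 4a and 4b and 56.6 and 64.3 CPM in the ZMYND8 controls (log2 -0.93 ± 0.11 SE, adjusted p = 2.01e-06). NEU1, the sialidase that cathepsin A stabilises, measured 48.2 and 56.4 CPM against 82.7, 92.8, 93.7 and 84.1 CPM in controls 3 and 4 and 75.6 and 81.1 CPM in the ZMYND8 controls (log2 -0.76 ± 0.10 SE, adjusted p = 1.47e-05). Both enzymes of this pair were lower than all 6 controls. GAA, the acid glucosidase, rose (log2 0.54 ± 0.11 SE, adjusted p = 0.00109), but not against the ZMYND8 controls (log2 0.16 ± 0.13 SE, adjusted p = 0.444). Of 27 autophagy genes 4 (14.8%) fell and 1 (3.7%) rose against controls 3 and 4. Against the ZMYND8 controls 0 passed in edgeR or DESeq2 (4 at an unadjusted p under 0.05). ATG14, a subunit of the lipid kinase complex that starts autophagy, measured 21.6 and 27.7 CPM against 33.3, 44.9, 43.3 and 38.5 CPM (log2 -0.70 ± 0.12 SE, adjusted p = 0.00037), while the ZMYND8 controls were between, with a mean of 30.2 CPM.

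Counts in several metabolic and stress lists differed between the sets of controls. Cholesterol synthesis and uptake had 3 of 24 genes (12.5%) lower against controls 3 and 4, where 4.88% of all genes were lower. Against the ZMYND8 controls 9 (37.5%) were lower, where 3.94% of all genes were. TM7SF2, a sterol reductase gene, was at 24.1 and 22.2 CPM against 29.1 to 34.4 CPM in controls 3 and 4 and 30.1 and 33.3 CPM in the ZMYND8 controls (log2 -0.47 ± 0.09 SE, adjusted p = 0.000706), with a neighbouring gene, VPS51, that overlaps it. SQLE (-0.42) and LSS (-0.36) were the other 2. The integrated stress response had 5 of 42 (11.9%) lower and 1 (2.38%) higher, where 6.57% of all genes were higher. Against the ZMYND8 controls 9 (21.4%) of its genes were lower. DDIT4, an inhibitor of mTORC1, measured 71.1 and 64.9 CPM against 136, 101, 105 and 114 CPM in controls 3 and 4 and 148 and 229.7 CPM in the ZMYND8 controls (log2 -0.75 ± 0.21 SE, adjusted p = 0.0203), and the 2 sets of controls differed (log2 0.72 ± 0.20 SE, adjusted p = 0.0263). The DDIT4 and SQLE calls were lost without control 3a or either ZNF655 replicate, and that of LSS without either.

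In the glycolysis list 4 of 23 genes (17.4%) fell and 1 (4.35%), ENO2, rose against controls 3 and 4. Of all genes 4.88% fell and 6.57% rose. LDHA measured 741 and 692 CPM against 941, 959, 935 and 1120 CPM (log2 -0.47 ± 0.11 SE, adjusted p = 0.00517), and lost its call without ZNF655 replicate 4. Heat shock genes had 3 of 19 (15.8%) lower, led by HSP90AA1 (log2 -0.49 ± 0.12 SE, adjusted p = 0.00789). Against the ZMYND8 controls 0 were lower and 1 (5.26%) was higher, where 5.16% of all genes were higher. The primary cilium list had 2 of 43 higher and 2 lower (4.65% each), no more than the 6.57% and 4.88% of all genes, with IFT88 (-0.51) and BBS4 (-0.46) lower against both sets of controls. The calls of HSP90AA1 and IFT88 were lost when either ZNF655 replicate was left out, and that of BBS4 without replicate 4 or control 4a. Of 23 endoplasmic reticulum chaperone genes 1 (4.35%) rose, CRELD2 (log2 0.43 ± 0.10 SE, adjusted p = 0.00508), a call lost without replicate 4. The glucose-sensing arrestin gene ARRDC4 measured 30.8 and 32.4 CPM against 19.7 to 23.5 CPM (log2 0.58 ± 0.12 SE, adjusted p = 0.00137), and it did not pass against the ZMYND8 controls (log2 0.22 ± 0.14 SE, adjusted p = 0.339).

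Direct comparison with other depletions of the same replicate numbers needed no control. Against INTS13 depletion 1311 genes (6.8%) were called, 706 (3.66%) higher and 605 (3.14%) lower with the ZNF655 siPOOL. Against HDGF depletion 1211 (6.28%) were called, 760 (3.94%) higher and 451 (2.34%) lower. With any 1 of the 4 libraries left out, 458 to 586 genes were called against INTS13 depletion and 385 to 713 against HDGF depletion. p53 targets were lower than with INTS13 siPOOL in 9 of 38 genes and higher in 0 by edgeR, at an unadjusted p under 0.05 as well. They were higher than with HDGF siPOOL in 14 and lower in 1, PMAIP1. CDKN1A measured 109 and 107 CPM in INTS13 siPOOL cells and 27.5 and 26 CPM in HDGF siPOOL cells, with the ZNF655 libraries between them at 74.9 and 56.7 CPM. The differences were log2 -0.71 ± 0.16 SE, adjusted p = 0.00535 from INTS13 and log2 1.30 ± 0.16 SE, adjusted p = 1.49e-05 from HDGF. FAS had the same order (log2 -0.52 ± 0.13 SE, adjusted p = 0.0116 from INTS13, and log2 0.75 ± 0.13 SE, adjusted p = 0.000621 from HDGF). PHLDA3 did not differ from the INTS13 libraries by the test (log2 -0.39 ± 0.21 SE, adjusted p = 0.33).

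Several other named genes were called on the same side of both depletions. SYP was higher than with INTS13 siPOOL (log2 1.07 ± 0.09 SE, adjusted p = 3.88e-08) and than with HDGF siPOOL (log2 1.41 ± 0.09 SE, adjusted p = 3.31e-10). ZDHHC22 (1.20 and 1.41), TMEM198 (1.08 and 1.09) and PARM1 (0.50 and 0.73) were also called higher than both. SNAP23 was at 55.5 and 52 CPM in INTS13 siPOOL cells and 40.8 and 42.5 CPM in HDGF siPOOL cells, and lower with the ZNF655 siPOOL (log2 -1.29 ± 0.12 SE, adjusted p = 9.66e-08, and log2 -0.92 ± 0.12 SE, adjusted p = 2.05e-05). TNC, POMK, PRSS23, EMILIN2, TMEM9B, JUN, LYPD1, LIN7C and THUMPD1 were likewise called lower than in both. BASP1 was not called in either direct comparison (log2 0.05 ± 0.21 and 0.31 ± 0.21 SE). KCNC1 was not called in either (log2 0.45 ± 0.27 and 0.51 ± 0.27 SE). In the neuronal list 5 of 25 genes were higher than with INTS13 siPOOL and 6 higher than with HDGF siPOOL, SYP, SCG3 and CHGB among them.

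**Figure D5:**
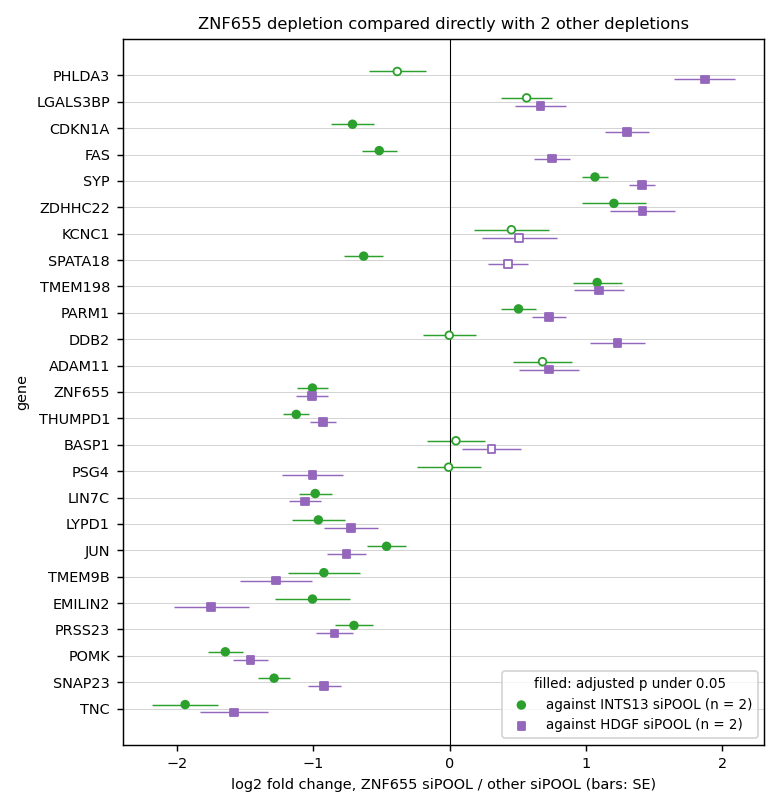
Log2 fold change with its SE of the ZNF655 siPOOL libraries over INTS13 siPOOL libraries (circles) and HDGF siPOOL libraries (squares) for the 24 named protein-coding genes and ZNF655; filled points have an adjusted p under 0.05. CDKN1A, FAS and SPATA18 lie left of 0 for INTS13 and right of 0 for HDGF, and SNAP23 lies left of 0 for both.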

How the data were processed

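Ribosome-depleted total RNA was sequenced from HEK293T cells in 35 libraries of 15 groups. The values are read counts per gene that the authors deposited as 1 table of raw counts; by that table's own name, duplicates had not been removed. FastQC, cutadapt, STAR and hg38 are named without versions, per the submitters' processing notes. The counting tool and its strand setting are not given in the sources used here.

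edgeR 4.0.16 in R 4.3.3 fitted 15 group means over all 35 libraries by quasi-likelihood, with TMM scaling, after filterByExpr by group removed low counts and left 19275 genes. p-values were adjusted by Benjamini-Hochberg over these genes, and the fit was tested on simulated data. CPM values are TMM-scaled, and SE is the log2 fold change over the root of the F statistic. Alternatives were DESeq2 1.42.0, other scaling and filters, a replicate block, other sets of samples and leaving out each library.

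Named genes were ZNF655, for each direction the 12 protein-coding and 3 long noncoding genes that changed most under the conditions given in the report, up to 4 called members of each list, a short fixed list, and called genes near ZNF655. Other genes were named after their values were seen. The members and lists were chosen with earlier results of these data known. Some genes examined are not reported here.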

Additional observations from a re-analysis of the deposited data

Results flagged for a closer look

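Of 112 named genes examined in controls 3 and 4, 9 had a single library far from the other 3 (Dixon's criterion); chance gives about 1 in 20. Control 3a was the high library for ADAM11, with 12 CPM against 10.2 to 10.5 in the others. It was also high for FDXR (19.3 against 16.1 to 16.6 CPM) and for RPL13 (1926 against 1415 to 1485 CPM). Control 4b was high for LDHA (1120 against 935 to 959 CPM), HSP90AA1 (2006 against 1548 to 1598 CPM) and VAV3 (7.91 against 6.72 to 6.86 CPM). Control 4a was high for INTS6L (29.8 against 27.1 to 27.3 CPM), BBS4 (40.4 against 36.2 to 36.9 CPM) and TMEM231 (9.25 against 8.59 to 8.67 CPM). ADAM11 and FDXR kept their calls without control 3a, LDHA and HSP90AA1 theirs without control 4b, and INTS6L and TMEM231 theirs without control 4a. The TMEM231 call was lost with any other of the 6 libraries left out. It was not made against the ZMYND8 controls (log2 -0.14 ± 0.11 SE, adjusted p = 0.475). RPL13 lost its call without 3a and BBS4 without 4a.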

How the results depend on the processing

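With single libraries left out, against controls 3 and 4 the 2208 calls ranged from 721 to 2211, against the ZMYND8 controls the 1755 calls from 493 to 659, and between the 2 sets of controls the 1477 calls from 123 to 1861. Against INTS13 siPOOL the range was 458 to 586 and against HDGF siPOOL 385 to 713. With the spread taken only from the 2 groups compared, these 5 counts were 4671, 6163, 4319, 4795 and 3760. With a replicate block added to such fits they were 4040, 6388, 3808, 6141 and 4313; the labels do not say that numbers pair the libraries. Over 11515 genes the deviations of same-numbered ZNF655 libraries correlated at r = -0.16 with controls 3 and 4, -0.0545 with the ZMYND8 controls, 0.181 with INTS13 and 0.153 with HDGF siPOOL libraries (a description). Summing controls a and b of a number left 1344 calls against controls 3 and 4. The cause of these shifts was not tested, and the fits that leave out libraries also held fewer samples. The DESeq2 Wald test made 44.4% of calls against controls 3 and 4 higher rather than 57.4%, and DESeq2 size factors 48.1%, with a median over all genes of -0.02 rather than 0.02. Of the 112 named genes 103 were called; none of these changed direction under the alternatives run, and 46 kept the call with each of the 6 libraries left out in turn.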

Other observations

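Calls of noncoding genes were mostly upward, at shares below those of all genes against controls 3 and 4 (6.57% higher, 4.88% lower). Of 3568 long noncoding genes tested, 108 (3.03%) rose and 15 (0.42%) fell against controls 3 and 4. Against the ZMYND8 controls 231 (6.47%) of them rose and 27 (0.757%) fell. Of 1268 pseudogenes 45 (3.55%) rose and 3 (0.237%) fell against controls 3 and 4. Against the ZMYND8 controls 88 (6.94%) of them rose and 5 (0.394%) fell. There the shares higher of both kinds were above the 5.16% of all genes, and the shares lower below the 3.94%. Of 13753 protein-coding genes 1098 (7.98%) rose and 920 (6.69%) fell against controls 3 and 4. Genes of any kind with a mean log2 CPM under 0 had the same tilt, 216 higher and 14 lower of 4929, and its part in the noncoding calls was not tested. The ZMYND8 controls were themselves lower than controls 3 and 4 in 137 long noncoding genes and higher in 56.

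The neighbours of ZNF655 on chromosome 7 were counted. Of 23 other genes tested within 500 kb on either side, 4 were called against controls 3 and 4 (where 11.5% of all genes were called), all lower: the zinc finger genes ZSCAN25 (log2 -0.29), ZKSCAN1 (-0.41) and ZSCAN21 (-0.42), and the RNA processing gene CPSF4 (-0.32). Each of these 4 lost its call with some single libraries left out. With the ZMYND8 controls as reference 4 genes were called, all lower: ZSCAN21, CPSF4, PDAP1 and TMEM225B. In that comparison 9.11% of all genes were called and 3.94% were lower. The median over the 23 was -0.15. TMEM225B, among the nearest neighbours, was lower by value (log2 -0.98) without passing against controls 3 and 4, and FAM200A stood at -0.12. GJC3 (log2 2.84) and CYP3A5 (1.00), both with means under 1 CPM, were higher by value without passing.

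TXNIP, an arrestin-like gene that responds to glucose, measured log2 0.64 against controls 3 and 4, a call lost without any 1 of 5 libraries.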
